A study of Mus musculus with 6 samples.

Results

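The circadian clock genes described here are 10 genes taken by name from the deposited expression table, which lists 54532 genes: Arntl (which encodes BMAL1), Clock, Npas2, Per2, Per3, Cry1, Cry2, Nr1d1, Nr1d2 and Dbp. All 10 were found, and they were compared between cultures of MC3T3-E1 cells, a mouse pre-osteoblast line. The 3 control samples were kept for 3 days in osteogenic medium, which holds β-glycerophosphate, ascorbic acid and 10 nM dexamethasone. The 3 metformin samples had the same medium with 0.2 mM metformin, a biguanide drug against diabetes. The dose comes from the study's results and the 3 days from its methods, since the sample labels give neither. Both groups therefore received dexamethasone, a glucocorticoid that is known to reset the clock of cultured cells. Each culture was read at a single time, and the hours of harvest and of the last medium change are not given in the sources used here, so a change of level and a shift in the time of a daily peak cannot be told apart. In such bulk samples, fewer cells that express a gene and less RNA per cell cannot be told apart either.

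The clock is a feedback loop of transcription that runs in nearly every cell, osteoblasts included. BMAL1 pairs with CLOCK or NPAS2 and binds E-box sequences in the genes of its own repressors, the PER and CRY proteins, and in Nr1d1, Nr1d2 and Dbp. The nuclear receptors NR1D1 and NR1D2 (REV-ERB) repress Arntl through ROR elements, which forms the second loop, and DBP carries the rhythm on to genes with a D-box, where the repressor NFIL3 competes with it.

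Between 18399861 and 22111790 reads per sample lay behind the values, which were taken as FPKM (reads of a gene scaled by its length and by the library). Control replicate 1 stood apart from the other controls: its log2 values had Pearson correlations across genes of 0.96 and 0.952 with theirs, against 0.988 between those other controls and at least 0.992 between metformin samples. Across genes, its deviation from them ran against GC content (Spearman correlation -0.668), so the results are also given without it. All 8 osteoblast markers examined were expressed, and they summed to between 10004 and 11752 FPKM in controls and between 6793 and 7184 with metformin. Of them, 2 were called higher by limma-trend (Col1a1 and Col1a2) and 2 lower (Ibsp, with a log2 fold change of -1.60, and Spp1, with -1.50). Among all genes tested, 13.2% were called higher and 9.28% lower. Spp1 had the highest mean of these markers and weighs most in their sum, at 7703 FPKM in controls and 2704 with metformin. Col1a1 went from 1339 to 2487 FPKM and Col1a2 from 970 to 1444. Without a call, the metformin samples lay above all controls for Sp7 (1.28 times the control mean) and below them for Runx2 (0.877 times). Of 15 markers of fat, cartilage, muscle, macrophage and endothelial cells, 4 (Fabp4, Col2a1, Col10a1 and Cd68) had a mean of at least 0.5 FPKM, and the list summed to between 14.9 and 19.6 FPKM in controls and between 12.2 and 13.2 with metformin. Of these, 2 were called lower, Col10a1 of hypertrophic cartilage (3.79 to 0.264 FPKM on average) and Cd68 of macrophages (2.04 to 1.17 FPKM), 0 were called higher, and 3 (Cidec, Myod1 and Myog) were at 0 in every sample. The part of cell makeup and of RNA quality in the results was not tested.

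Of the core clock genes, Per3 rose with metformin from a low level, to 2.6 times the control mean, and was called higher in a fit with no filter on low values. Per2, Cry2, Nr1d1, Nr1d2 and Arntl had metformin means of 0.701 (Nr1d1) to 0.858 (Arntl) times those of controls, with no overlap between the groups, but none of these differences passed the test with all 6 samples. Clock, Cry1 and Dbp overlapped between the groups, and Npas2 was barely detected.

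Of the 10 genes, 8 had a mean of at least 0.5 FPKM and entered the fit across 12681 genes, which used limma-trend on log2(FPKM + 1) with Benjamini-Hochberg adjustment. Per3, with a mean of 0.494 FPKM, fell just below that limit, and Dbp, with 0.55, just above it. Of the 8 genes, 0 had an adjusted p-value under 0.05, where 22.5% of all genes did (13.2% higher and 9.28% lower). At an unadjusted p-value under 0.05 there were 2, Per2 and Nr1d2, where 35.8% of all genes were under it, and voom on the recovered reads called 1, Per2, where it called 23.8% of all genes. The log2 fold change was negative for 6 of the 8, with a median of -0.23, while the median over all genes tested was 0.0053 and 49.3% were negative. The constant of 1 added to each value shrinks log2 fold changes, the more so the lower the FPKM of the gene. The 3 metformin samples lay below all 3 controls for 5 of the 8 genes, where 20.5% of all genes did, and above them for 0, where 23.6% did. Without control replicate 1 the number below was also 5, against 31.6% of all genes.

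**Figure D1:**
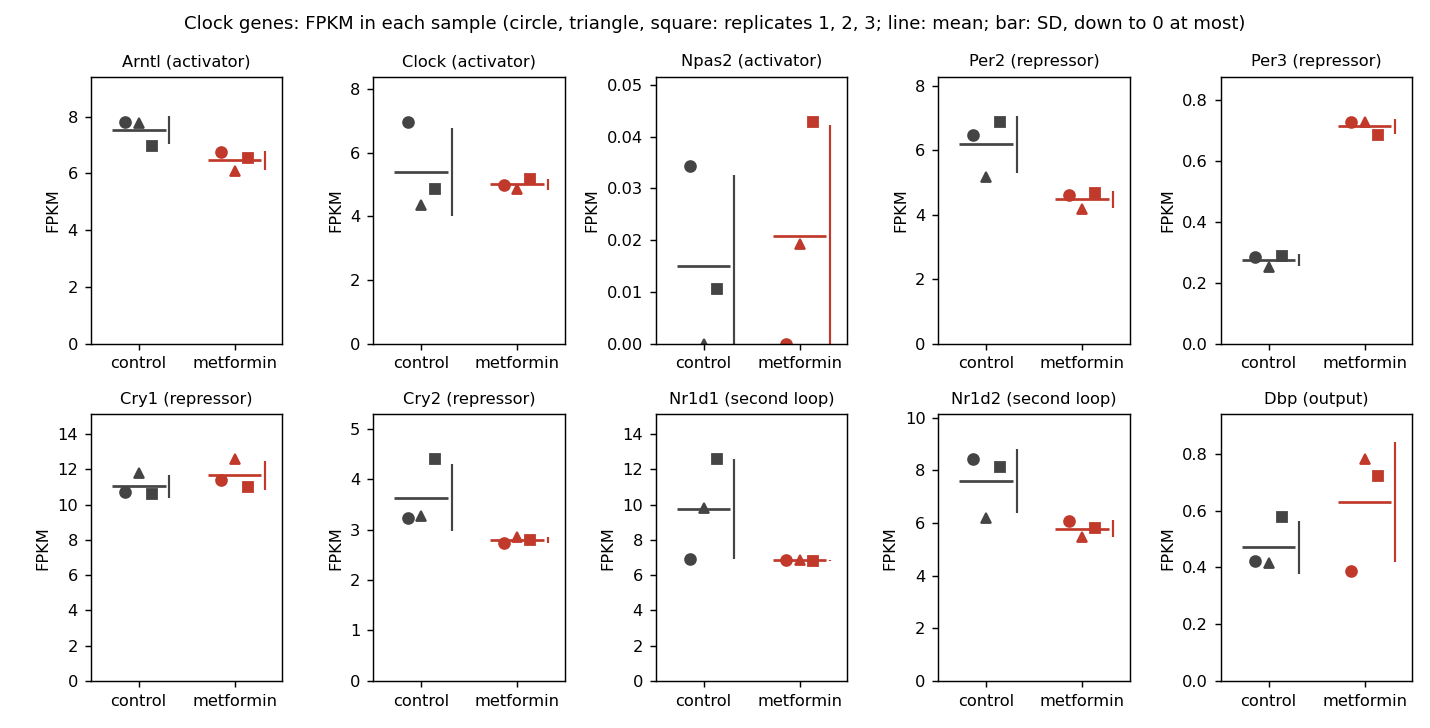
FPKM of each clock gene (vertical axis, from 0, on a separate scale for each gene) in the control (grey) and metformin (red) samples, with circles, triangles and squares for replicates 1, 2 and 3, a line at the mean and a bar for the SD (n = 3). The metformin samples of Per3 sit between 0.684 and 0.729, above the controls at 0.253 to 0.286, and for Nr1d1 the controls spread from 6.91 to 12.6 while the metformin samples lie between 6.82 and 6.88.

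Among the activators, Arntl (chromosome 7, 113207465 to 113314126, GRCm38) had 7.83, 7.79 and 6.95 FPKM in control replicates 1 to 3 and 6.75, 6.08 and 6.54 FPKM with metformin. Each metformin sample was below each control, by a narrow margin. The log2 fold change was -0.19 (95% interval -0.39 to 0.01, adjusted p = 0.157 by limma-trend). Clock (chromosome 5, 76209868 to 76304792) had 6.98, 4.37 and 4.85 FPKM in controls and 4.99, 4.85 and 5.17 FPKM with metformin. Control replicate 1 alone was high, and the other controls lay at or below the lowest metformin sample. Its log2 fold change was -0.07 (95% interval -0.43 to 0.29) with all samples and 0.10 (-0.07 to 0.27) without control replicate 1. Npas2 (chromosome 1, 39193731 to 39363236), which can take the place of Clock, had 3, 0 and 1 reads in controls and 0, 2 and 4 with metformin, so a difference was not detectable at this depth. The smallest number taken as detectable, 3 reads, is at most 1.63e-05% of a library, a limit that covers only counting error.

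Of the period genes, Per2 (chromosome 1, 91415982 to 91459324) had 6.47, 5.18 and 6.89 FPKM in controls and 4.60, 4.18 and 4.66 FPKM with metformin. The groups did not overlap, and the mean went from 6.18 ± 0.892 to 4.48 ± 0.265 FPKM (SD, n = 3). The log2 fold change was -0.38 (standard error 0.11, 95% interval -0.65 to -0.11) with an adjusted p of 0.0534 by limma-trend, just on the far side of the threshold. It passed with voom on the recovered reads (-0.45, adjusted p = 0.0443), without control replicate 1 (-0.35, adjusted p = 0.0477) and without control replicate 2 (-0.49, adjusted p = 0.0246), while over all fits that left out a sample the adjusted p ran from 0.0246 to 0.192.

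Per3 (chromosome 4, 151003652 to 151044665) had 0.285, 0.253 and 0.286 FPKM in controls and 0.729, 0.726 and 0.684 FPKM with metformin. These rest on 50, 51 and 54 reads against 139, 152 and 128. Every metformin sample stood well above every control, and within each group the samples lay close together (0.275 ± 0.0187 and 0.713 ± 0.0253 FPKM, SD, n = 3). With no filter on low values, Per3 was among the 5.77% of 24801 genes called higher, at 0.43 higher on the log2 scale (standard error 0.05, 95% interval 0.30 to 0.56, adjusted p = 0.00736 by limma-trend). That share counts genes with very few reads, and it was 13.2% in the filtered fit. Over genes with at least 10 reads in every sample, limma-trend called 1721 genes higher, Per3 among them (0.43, adjusted p = 0.00157). The constant of 1 added to each value shrinks this estimate for so low a gene. On the recovered reads, voom over genes with at least 10 reads in all, a fit chosen after the values were seen, gave a log2 fold change of 1.37 (95% interval 0.95 to 1.79, adjusted p = 0.000976). In the fits with no filter the call held when each sample was left out in turn (adjusted p from 0.00874 to 0.0298), but with the replicate number as a block the adjusted p was 0.0822. Within a sample, the ratio of Per3 to Per2 FPKM was 0.044, 0.0489 and 0.0415 in controls and 0.158, 0.174 and 0.147 with metformin, a ratio chosen after the values were seen. Per3 lies partly within the span of Camta1 on the same strand but shares no exonic base with it, and Camta1 had a mean of 0.668 FPKM in controls and 0.675 with metformin.

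The region before the start of Per3 is shown because this was the clock gene that rose and because the window holds a pair of D-boxes. It is the RefSeq promoter window on GRCm38.p6 (250 bases before to 50 after the start site), chr4:151044616-151044915, minus strand, printed 5′ to 3′ with the D-boxes in capitals.
Per3: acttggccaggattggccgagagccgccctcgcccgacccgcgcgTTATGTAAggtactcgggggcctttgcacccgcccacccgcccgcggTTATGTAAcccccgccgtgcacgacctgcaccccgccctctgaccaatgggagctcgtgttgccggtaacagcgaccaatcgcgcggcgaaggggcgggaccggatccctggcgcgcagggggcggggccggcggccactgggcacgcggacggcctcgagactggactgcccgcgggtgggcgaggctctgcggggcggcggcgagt

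The D-box letters TTATGTAA, searched on both strands, begin at -205 and -158 from the start site. Of the 32851 RefSeq promoter windows of this length, 0.938% hold these letters at least once and 0.0213%, or 7 windows, hold them 2 or more times, where windows of a gene with several starts can overlap. The window of Per3 is among those 7, and the motifs were chosen after the values were seen. Whether these D-boxes bear on the rise of Per3 was not tested. The windows of the other clock genes hold no such D-box. The E-box CACGTG, found in 7.15% of windows, is in that of Cry1, and the related letters CACGTT, found in 4.68%, are in those of Cry1, Cry2 and Nr1d1. The letters TAGGTCA or TGGGTCA, the core of the ROR element, are in 6.45% of windows and in 1 of the 2 Arntl windows. Promoter windows were matched for 9 of the 10 genes, Per2 being without an entry, and a match of letters is a description of the sequence, not a bound site.

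The windows of Nr1d1 (chr11:98775328-98775627, minus strand) and of the Arntl start whose window holds TAGGTCA (chr7:113207261-113207560, plus strand) are shown as both sides of the second loop. Capitals mark CACGTT on the reverse strand in the former and TAGGTCA in the latter. Only the letters searched for are marked, and other forms of these elements were not sought.
Nr1d1: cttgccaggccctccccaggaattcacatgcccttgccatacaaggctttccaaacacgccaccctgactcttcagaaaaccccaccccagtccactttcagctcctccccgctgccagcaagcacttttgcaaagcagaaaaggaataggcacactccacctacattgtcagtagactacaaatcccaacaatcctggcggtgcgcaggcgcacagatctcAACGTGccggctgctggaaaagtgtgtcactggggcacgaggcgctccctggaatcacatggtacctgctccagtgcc
Arntl: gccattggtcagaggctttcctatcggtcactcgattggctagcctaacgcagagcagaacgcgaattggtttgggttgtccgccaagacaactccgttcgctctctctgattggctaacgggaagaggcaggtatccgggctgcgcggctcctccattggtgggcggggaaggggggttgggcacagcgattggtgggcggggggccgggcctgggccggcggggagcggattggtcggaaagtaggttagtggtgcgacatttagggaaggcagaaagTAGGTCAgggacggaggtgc

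Of the cryptochromes, which repress BMAL1 and CLOCK together with the PER proteins, Cry1 had the highest mean FPKM of the 10 genes in both groups. It lies on chromosome 10 (85131700 to 85185064) and had 10.7, 11.8 and 10.6 FPKM in controls and 11.4, 12.6 and 11 FPKM with metformin, and the groups overlapped. Its log2 fold change was 0.07 (95% interval -0.14 to 0.29). Cry2 (chromosome 2, 92403646 to 92434043) had 3.23, 3.26 and 4.40 FPKM in controls and 2.74, 2.86 and 2.79 FPKM with metformin. All metformin samples were below the controls, of which replicate 3 was the highest. The log2 fold change of Cry2 was -0.28 (95% interval -0.55 to 0.00, adjusted p = 0.14 by limma-trend) and -0.34 without control replicate 1 (adjusted p = 0.0489), but -0.16 without control replicate 3 (adjusted p = 0.213). With voom, where no constant of 1 shrinks it, Cry2 had -0.36 (95% interval -0.70 to -0.02, adjusted p = 0.116). It shares 295 exonic bases, 4.67% of its exons, with D930015M05Rik on the opposite strand, which had at most 4 reads in a sample.

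In the second loop, Nr1d1 (chromosome 11, 98767932 to 98775333) had 6.91, 9.81 and 12.6 FPKM in controls and 6.88, 6.85 and 6.82 FPKM with metformin. The controls differed 1.83-fold among themselves and the lowest, replicate 1, nearly met the metformin samples, which differed 1.01-fold. Among the genes tested with a value above 0 in every sample, 18% had a wider spread of controls than Nr1d1 and 99.5% a wider spread of metformin samples. The log2 fold change was -0.42 (95% interval -0.87 to 0.03, adjusted p = 0.162 by limma-trend) and -0.63 (95% interval -0.87 to -0.38, adjusted p = 0.00369) without control replicate 1, but -0.24 (adjusted p = 0.297) without control replicate 3. Nr1d1 overlaps Thra on the opposite strand over 263 exonic bases, 8.55% of its exons, and the reads of these genes cannot be told apart there unless counting used strand, which the sources used here do not state. Thra, a thyroid hormone receptor gene, had 18.3, 22.1 and 26.4 FPKM in controls, in the same order as Nr1d1, and 23.1, 24.5 and 23.9 with metformin.

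Nr1d2, the paralog of Nr1d1 on chromosome 14 (18204054 to 18239127), had 8.43, 6.18 and 8.13 FPKM in controls and 6.09, 5.47 and 5.80 FPKM with metformin. Here replicate 2 was the lowest control, and it lay just above the metformin samples. For Nr1d2 the log2 fold change was -0.33 (95% interval -0.62 to -0.04, adjusted p = 0.103 by limma-trend). Without control replicate 2 it was -0.45 (adjusted p = 0.0277), and with voom on all samples -0.38 (adjusted p = 0.0917). A GENCODE transcript of another gene, AC170187.1, is 96.1% identical to that of Nr1d2 over 1385 bases, so reads could be shared.

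The output gene Dbp (chromosome 7, 45705088 to 45710203) had 0.421, 0.414 and 0.578 FPKM in controls, on 23, 26 and 34 reads, and 0.387, 0.782 and 0.720 FPKM with metformin, on 23, 51 and 42 reads. Metformin replicate 1 lay below all controls and the others above them. This gave a log2 fold change of 0.14 (95% interval -0.18 to 0.46, adjusted p = 0.495 by limma-trend). The added constant shrinks it too: with 0.1 in place of 1 it was 0.32, and with voom 0.37, both without a call. Of the exons of Dbp, 18% (539 bases) overlap Sphk2 on the opposite strand, which had a mean of 7.42 FPKM in controls and 6.61 with metformin. Sphk2 had 339 to 757 reads in a sample. As for Nr1d1 and Thra, reads there cannot be told apart unless counting used strand. The level of Dbp and its ratio to Arntl carry this limit. The ratio of Arntl to Dbp FPKM, genes whose daily peaks lie far apart, was 18.6, 18.8 and 12.0 in controls and 17.4, 7.77 and 9.08 with metformin. That of Arntl to Nr1d1 was 1.13, 0.795 and 0.551 in controls and 0.982, 0.888 and 0.959 with metformin, and that of Arntl to Per2 was 1.21, 1.51 and 1.01 against 1.47, 1.45 and 1.40. None of these 3 ratios separated the groups.

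**Figure D2:**
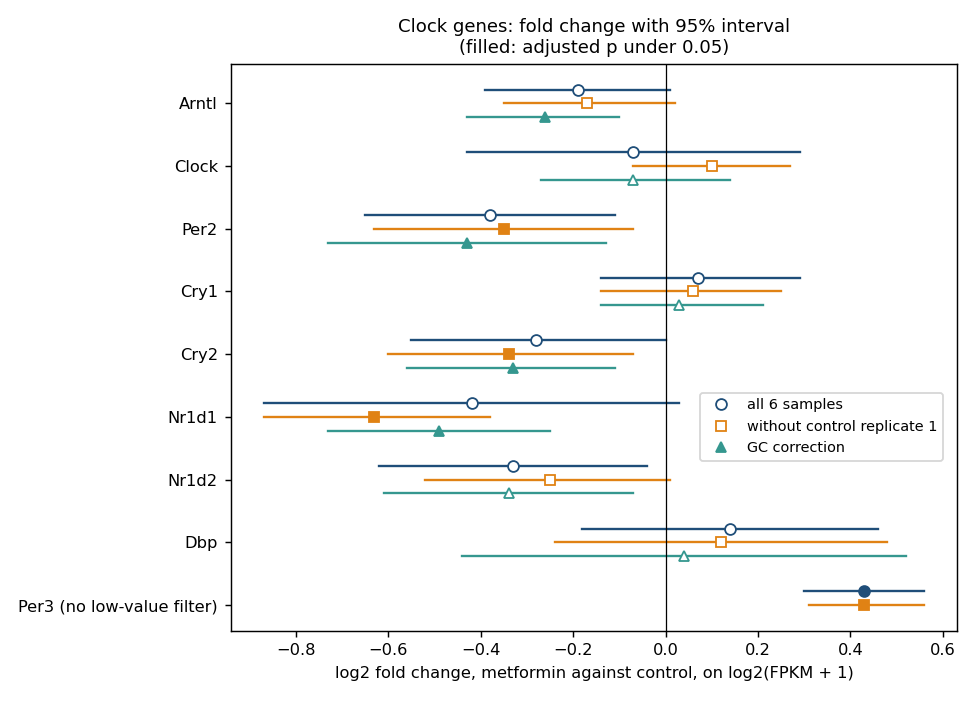
Log2 fold change of metformin against control (horizontal axis, on log2(FPKM + 1)) with its 95% interval, from the fit to all 6 samples (circles), without control replicate 1 (squares) and with a correction for GC content (triangles), filled where the adjusted p-value was under 0.05. Circles are open for the 8 genes of the filtered fit, and Per3, from fits with no filter on low values, is filled at 0.43.

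In controls the order of levels per length was Cry1, Nr1d1, Nr1d2, Arntl, Per2, Clock, Cry2, Dbp, Per3 and Npas2. The ranges over the 3 controls overlapped between neighbours from Cry1 to Arntl and from Per2 to Cry2, while Arntl and Per2, Cry2 and Dbp, Dbp and Per3, and Per3 and Npas2 did not overlap. With metformin Arntl stood before Nr1d2, Clock before Per2 and Per3 before Dbp. The ranges of Arntl and Nr1d2 (6.08 to 6.75 and 5.47 to 6.09 FPKM) and of Per3 and Dbp (0.684 to 0.729 and 0.387 to 0.782 FPKM) overlapped, so these pairs were not separated.

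The median ratio of the highest to the lowest control was 1.36 for the 8 genes and 1.38 for all genes, and that of the metformin samples was 1.11 for both. Control replicate 1 was high for Clock, whose longest transcript has a GC content of 40.9%, with a log2 ratio of 0.60 to the mean of the other controls, and low for Nr1d1 with 56.8% (-0.70). With each library corrected for GC content, 4 of the 8 genes were called lower, where 19.2% of all genes were: Arntl (-0.26, adjusted p = 0.0238 by limma-trend), Per2 (-0.43, adjusted p = 0.0383), Cry2 (-0.33, adjusted p = 0.0341) and Nr1d1 (-0.49, adjusted p = 0.0103). That correction moved the log2 fold change of all genes by a median of -0.0542, and with the replicate block beside it 2 of the 4, Per2 and Nr1d1, were called, where 14.9% of all genes were. Without control replicate 1, 3 were called lower (Per2, Cry2 and Nr1d1), where 20.4% of all genes were.

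**Figure D3:**
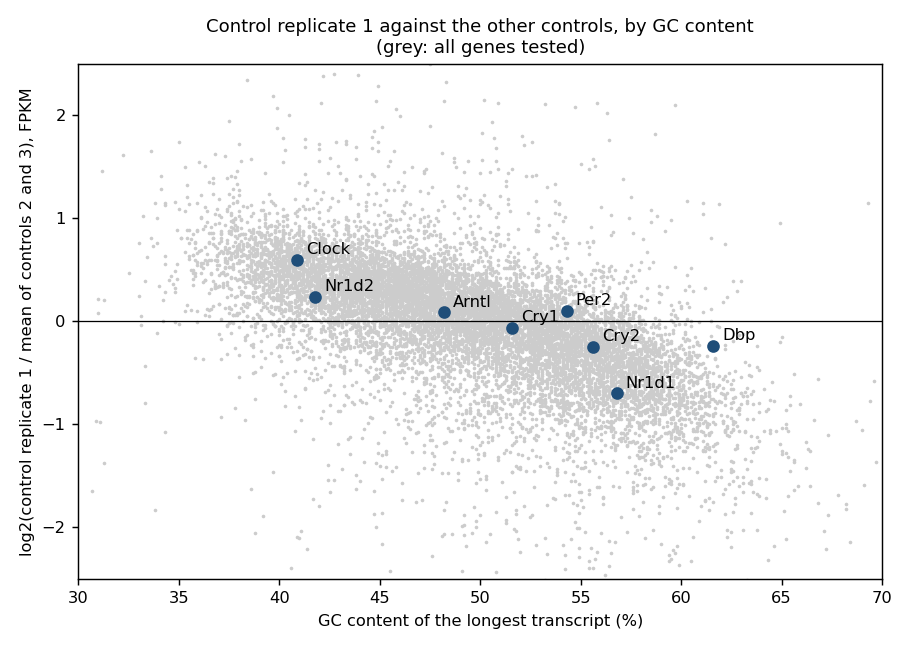
Log2 ratio of FPKM in control replicate 1 to the mean of the other controls (vertical axis) against the GC content of the longest transcript (horizontal axis, %), for genes tested with FPKM above 0 in all controls (grey) and the 8 clock genes (blue). The grey points fall from left to right, and the clock genes run from 0.60 for Clock to -0.70 for Nr1d1, with 93 grey points outside the axes.

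Other genes of the clock were taken from 3 lists. Of 11 further transcription factors and partners, 9 were tested. Of these, 0 were called higher and 2 lower by limma-trend, where 13.2% and 9.28% of all genes were. The median log2 fold change was -0.16. Of those not called, 1 (Bhlhe40) had an unadjusted p-value under 0.05, as 35.8% of all genes did, and voom also called 0 higher. The largest difference was that of Bhlhe41 (DEC2), a repressor that competes for E-boxes. It had 7.68, 12.0 and 12.8 FPKM in controls and 2.60, 2.88 and 2.67 FPKM with metformin, so that every metformin sample was far below every control. It fell by 1.64 on the log2 scale (standard error 0.18, adjusted p = 0.00121 by limma-trend). The added constant shrinks this value, and with voom it was -1.96. Bhlhe41 was called in all 6 fits with a sample left out. Its paralog Bhlhe40 (DEC1) had 21.8, 24.2 and 26.1 FPKM in controls and 30.6, 29.0 and 29.1 with metformin, without overlap. Its log2 fold change was 0.29 (95% interval 0.07 to 0.51, adjusted p = 0.0664), and it was called without control replicate 1 (0.23, adjusted p = 0.0227) and without control replicate 3 (0.35, adjusted p = 0.044).

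Nfil3, the repressor at D-boxes, had 38.0, 36.9 and 37.5 FPKM in controls and 27.9, 27.3 and 24.3 FPKM with metformin. The controls lay within 1.03-fold of each other and all metformin samples were lower. It fell by 0.49 on the log2 scale (adjusted p = 0.0087 by limma-trend, standard error 0.09), and 5 of the 6 fits that left out a sample kept the call, the exception being that without metformin replicate 3 (-0.43, adjusted p = 0.0529). Tef, an activator at the same sites, had 9.99 to 12.0 FPKM in controls and 9.85 to 10.4 with metformin (log2 fold change -0.13, 95% interval -0.34 to 0.09), and Hlf, the other activator of this family, had at most 1 read in a sample.

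Per1, the third period gene and a direct target of the glucocorticoid receptor, had 18.3, 23.5 and 33.8 FPKM in controls and 19.6, 19.8 and 19.1 FPKM with metformin. As for Nr1d1, the controls differed widely, 1.85-fold, and the metformin samples hardly, 1.04-fold. Its log2 fold change was -0.31 (95% interval -0.80 to 0.18, adjusted p = 0.324 by limma-trend). It was -0.51 without control replicate 1 (adjusted p = 0.0267) and -0.09 without control replicate 3 (adjusted p = 0.652). With the GC correction it was -0.39 (adjusted p = 0.0289), and -0.39 with the replicate block beside that (adjusted p = 0.0483). Ciart, which encodes a repressor of BMAL1 and CLOCK, had 3, 26 and 49 reads in controls and 27, 44 and 40 with metformin. Control replicate 1 was again the lowest, and the log2 fold change was 0.24 (95% interval -0.34 to 0.82) with all samples, -0.0072 without that control and, where the constant shrinks it less or not at all, 0.79 with 0.1 added and 1.04 with voom, none of them called. The ROR receptor gene Rora had 7.5, 4.84 and 4.50 FPKM in controls and 4.55, 4.86 and 5.02 with metformin, and without control replicate 1 its log2 fold change went from -0.16 to 0.03. Arntl2 (-0.13) and Cipc (-0.21) were not called, though with the GC correction Cipc was called lower (-0.27, adjusted p = 0.043 by limma-trend). Rorb, with 5, 1 and 3 reads in controls and 0 in every metformin sample, was too low for the filtered fit. With no filter its log2 fold change was -0.02 (adjusted p = 0.575 by limma-trend).

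Of 13 kinases, phosphatases, ubiquitin ligases and partners of clock proteins, 12 were tested. Of these, 1 was called higher and 0 lower, where 13.2% and 9.28% of all genes were. The median log2 fold change was -0.01. Another, Btrc, had an unadjusted p-value under 0.05, as 35.8% of all genes did, and voom called 1 lower. Btrc, a ubiquitin ligase subunit that marks PER proteins for breakdown, had 3.10, 2.83 and 2.88 FPKM in controls and 2.31, 2.42 and 2.36 with metformin. These did not overlap, with a log2 fold change of -0.23 (95% interval -0.41 to -0.04, adjusted p = 0.0861). Timeless was named for a clock gene of flies and serves DNA replication forks in mammals. It rose from 1.43, 1.04 and 1.5 FPKM to 4.38, 4.45 and 3.65 FPKM, without overlap. The rise was 1.15 on the log2 scale (standard error 0.12, adjusted p = 0.000904 by limma-trend). The added constant shrinks this value, and with voom it was 1.67. The casein kinase genes Csnk1d and Csnk1e, which phosphorylate PER proteins, had log2 fold changes of -0.11 (95% interval -0.41 to 0.18) and 0.05 (-0.27 to 0.37).

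Of 7 genes listed as clock outputs, all were tested, with a median log2 fold change of 0.25. Here 1 was called higher and 2 lower, where 13.2% and 9.28% of all genes were. A further 3 (Wee1, Noct and Tspan4) had an unadjusted p-value under 0.05, as 35.8% of all genes did. Their log2 fold changes were 0.25, 0.26 and 0.33. The added constant shrinks these values, most for Noct, whose mean went from 0.779 to 1.13 FPKM. The metformin means were 1.2 (Wee1), 1.45 (Noct) and 1.25 (Tspan4) times those of controls. For all 3 genes the metformin samples lay above all controls, as they did for 23.6% of all genes. Ppp1r3c, a glycogen-targeting subunit of protein phosphatase, fell by 1.95 on the log2 scale (standard error 0.13, adjusted p = 0.00018 by limma-trend), from 11.2, 9.87 and 8.14 FPKM to 1.54, 1.91 and 1.87 FPKM. The added constant shrinks this value, and with voom it was -2.44. Ppp1r3c was called whichever of the 6 samples was left out. Nampt, the enzyme of NAD salvage, had a log2 fold change of -0.46 (adjusted p = 0.0454) and Pdk4, a kinase that inhibits pyruvate dehydrogenase, of 0.51 (adjusted p = 0.0441). Nampt was called only in the 2 of those 6 fits that left out control replicate 1 or 3, and Pdk4 only in the 1 without control replicate 1, and neither held with the replicate block (adjusted p = 0.0564 and 0.085). These genes respond to many other signals, and their part in the clock was not tested here.

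**Figure D4:**
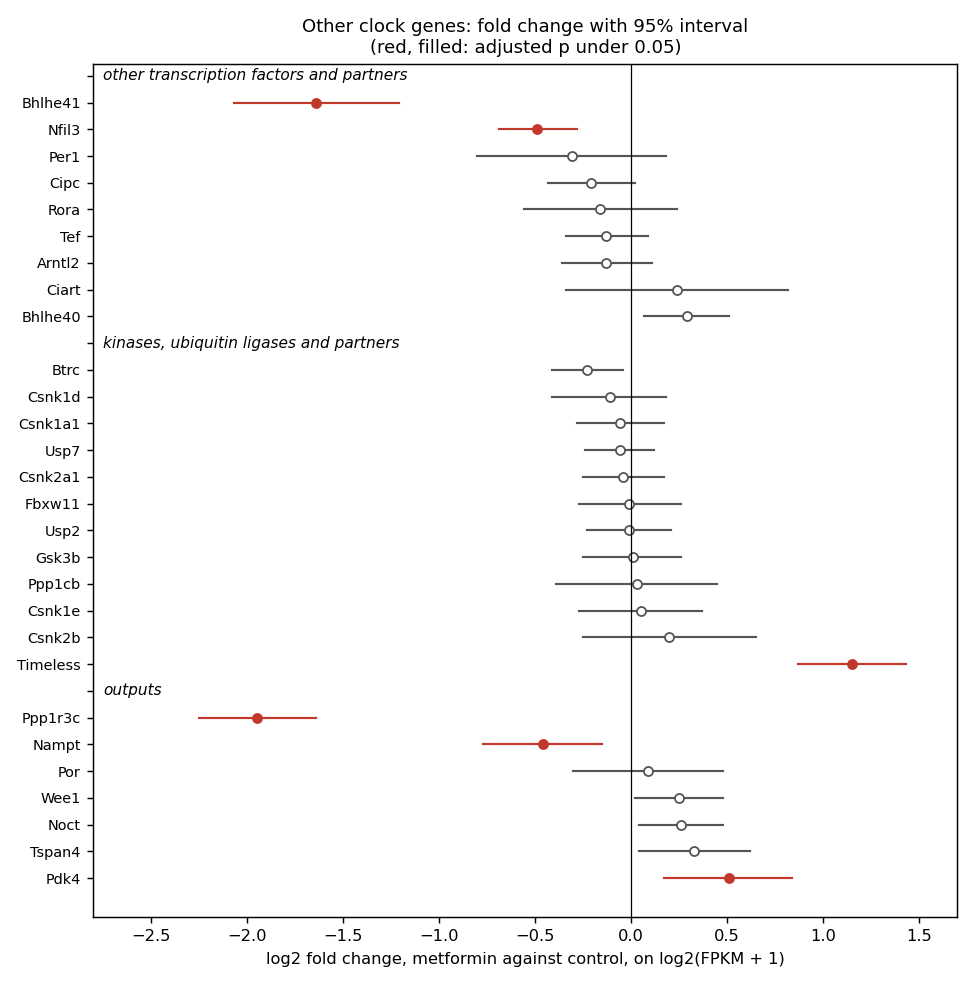
Log2 fold change of metformin against control (horizontal axis, on log2(FPKM + 1)) with its 95% interval for the tested genes of the 3 further lists (vertical axis), red and filled where the adjusted p-value was under 0.05. Bhlhe41 and Ppp1r3c lie farthest to the left at -1.64 and -1.95, and Timeless lies farthest to the right at 1.15.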

How the data were processed

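RNA of 6 samples (3 control, 3 metformin) was sequenced. The authors deposited a table whose header names no unit. Per the labels, TruSeq RNA libraries were made, and the submitters' processing notes name Bowtie 0.12.2 and the builds mm8 and mm9 without a role. The coordinates of 53499 of the 54532 genes are those of GENCODE M21 (GRCm38). The deposited values were taken as FPKM. Times the gene length the authors list, 100% of those above 0 are whole multiples (within 0.01) of 1 step per sample. This gives the reads, but other values scaled by length and library would pass it too. Columns of values that belong to no sample here numbered 0. The authors tested with DESeq2. As the table holds FPKM, limma 3.58.1 (R 4.3.3) was run here with an intensity trend on log2(FPKM + 1) over genes with a mean of at least 0.5 FPKM, two-sided, with Benjamini-Hochberg adjustment and a threshold of 0.05, and voom on the recovered reads was an alternative. Intervals of 95% come from the same fit. The code of the fit was checked on simulated reads with known changes. These had no outlying control and no GC effect, so the check does not cover those features of the data. Some genes are not reported here. The study's methods call the samples of a group biological replicates, while the labels do not say whether they are separate cultures.

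The clock genes and lists were chosen with earlier results of these data known. Named are all 10 genes, list genes with an adjusted p-value under 0.05, all tested transcription factors, and genes overlapping a member. Btrc, Csnk1d, Csnk1e, Wee1, Noct, Tspan4, the markers named with their values, the list genes too low for the filtered fit and the motifs were chosen after the values were seen. The replicate numbers come from the labels, which do not say that they pair samples, so the block is an alternative. GC content was that of the longest GENCODE transcript (99.9% of genes tested) and its correction a spline with 5 degrees of freedom per library. Near-identical transcripts (95% over 200 bases) were sought with BLAST+ 2.17.0. Promoters are from RefSeq (GRCm38.p6). Figures used matplotlib 3.10.9.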

Additional observations from a re-analysis of the deposited data

How the results depend on the processing

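Counts of all genes were 1670 higher and 1177 lower. With the replicate block 698 were lower, with the GC correction 2433, and with both 1888. Leaving out each sample gave 938 to 2969 higher and 495 to 2590 lower. Clock genes called lower were 0, and 4 with the GC correction, 2 with that and the replicate block, 1 with voom on the recovered reads (also over genes with at least 10 reads over the samples, chosen after seeing the data) and 0 to 3 without each sample in turn, while 0 of the 8 tested were called higher in any of these fits. For same-numbered samples, deviations from their groups' means correlated at -0.0533, 0.000265 and -0.0549 over the genes. As control replicate 1 stood apart from the other controls, these values cannot settle whether the numbers pair the samples.

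Calls gained were Arntl with the GC correction (-0.26), Per2 with it (-0.43), with it and the replicate block (-0.43) and with either voom fit (-0.45), Cry2 with it (-0.33), and Nr1d1 with it (-0.49) and with it and the block (-0.49). Over the fits that left out a sample, log2 fold changes ran from -0.49 to -0.31 for Per2, -0.34 to -0.16 for Cry2, -0.63 to -0.24 for Nr1d1, -0.45 to -0.25 for Nr1d2 and -0.19 to 0.10 for Clock. Per3, in the fit with no filter and the replicate block, was 0.43 without a call. Signs changed without control replicate 1 for Rora (0.03, in a range of -0.28 to 0.03) and Ciart (-0.0072, in a range of -0.0072 to 0.48). The cause was not tested.

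Of the further transcription factors, 4 were lower with the GC correction (Bhlhe41, Nfil3, Per1 and Cipc), where 19.2% of all genes were. Without each sample, 0 to 1 were higher and 1 to 3 lower. Of the kinases, ligases and partners, 1 was lower with voom, and 1 to 2 were higher and 0 lower without each sample. Of the outputs, 0 were higher and 1 lower with no filter and 0 and 1 with the replicate block, 2 were higher over genes with at least 10 reads in every sample, 2 with the GC correction and 2 with either voom fit, and 0 to 2 were higher and 1 to 2 lower without each sample. Depth limits Npas2, Dbp, Ciart and Per3, which rest on at most 152 reads in a sample.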
